A study of Mus musculus with 52 samples.

Results

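Liver RNA taken 1 week after partial hepatectomy was compared with liver RNA of untreated mice. The arrays were chosen by their titles: replicates 1 to 3 of the 1-week group and replicates 1 to 5 of the untreated controls, which are 8 of the 52 arrays of the series. The fourth 1-week array was left out because its levels do not correlate with its group, a choice that rests on measured values. The series follows the liver from 1 hour to 3 months after surgery, with each whole-liver RNA sample hybridized to its own Affymetrix mouse genome array. The mice of the 1-week group were male C57Bl6/N animals of 8 to 12 weeks on a standard diet, with no genetic change named in the labels, from which most of the liver had been resected 1 week earlier. The control mice had the same sex, strain, age range and diet and no operation, so surgery, anaesthesia and loss of tissue cannot be told apart in the comparison, and no sham-operated group was analysed here. Arrays of operated mice at 4 days (4 arrays), 2 weeks (2), 4 weeks (4) and 3 months (3) are used to place the 1-week values in time. The labels give 8 to 12 weeks as the age of these groups too. At 3 months after surgery that range cannot be the age at collection. Time after surgery and age therefore cannot be told apart in the comparisons with later groups. The labels do not say that each array holds a separate mouse, so the p-values refer to variation among arrays, part of which may be technical.

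After partial hepatectomy the remaining lobes enlarge rather than regrow the lost ones: mature hepatocytes re-enter the cell cycle within days, the other liver cells follow, and growth stops once the liver has regained about its original mass. The question at 1 week is which parts of the regenerative programme are still running when most of the mass has returned. In male mice the pulsed release of growth hormone also keeps a set of liver genes high and another set low, and both sets are known to respond to injury.

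The left-out 1-week array, replicate 4, was examined over the 2000 most variable genes after centring each gene on all arrays. Its correlation with the mean of the other arrays of its group was -0.28, and with the 12-hour arrays 0.38. For the 3 arrays kept, the correlations with the rest of the group, replicate 4 among them, were 0.17, 0.17 and 0.29, and those with the 4-day arrays 0.49, 0.50 and 0.58. Replicate 4 had 12.46 as its mean log2 level over the acute phase proteins, against 10.50 to 11.02 in replicates 1 to 3 and 9.35 to 10.56 in controls. For the cell cycle genes Mki67 and Ccnd1 it had log2 levels of 4.13 and 4.79, against 6.55 to 7.06 and 10.00 to 10.46 in replicates 1 to 3. Its Ccnd1 level lay below that of every control. Leaving replicate 4 out bears on these same genes, so each gene group's counts are also given with it included. The p-values of single genes are from the fit without replicate 4 unless stated otherwise, and so depend on that choice. Of 203 called genes drawn by the naming rule given below, 172 kept their call with it included.

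The 1-week and control arrays also differed in technical measures. The spiked hybridization controls, added at a fixed amount to every array, had a mean log2 level of 9.66 to 9.97 at 1 week and 10.60 to 11.27 in controls. The poly-A controls, spiked into the RNA, stood at 5.01 to 5.70 at 1 week and 5.79 to 6.68 in controls. For Gapdh the 3′ probe set exceeded the 5′ one by 0.58 to 0.69 at 1 week and by 1.12 to 2.56 in controls, a measure of RNA integrity and of the labelling reaction. None of these ranges overlapped, and each difference had p = 0.0357 in a two-sided exact permutation test, the smallest value that 3 against 5 arrays allow. Their part in the results was not tested beyond the fits with each of them as a covariate, which are given below.

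The deposited values were log2 levels per probe set, so a difference of 1 is a doubling. Each of 18194 genes was represented by 1 probe set and tested with limma, and a gene was called where its Benjamini-Hochberg adjusted p was below 0.05. At 1 week 5618 genes, 30.9% of those tested, differed from controls. Of these, 3504 (19.3%) were higher and 2114 (11.6%) were lower at 1 week. These percentages are the background for the counts of each gene group below. The median change over all genes was 0.02.

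The split between higher and lower calls depended on level and on scaling. Genes higher at 1 week made up 62.4% of the calls as deposited, 55.5% after median centring, 44.6% after quantile normalization and 78.1% when dim genes were left out. When genes were ranked by mean level and cut into 5 equal bins, 40.6% of the brightest bin were called higher and 3.3% lower, and in the dimmest bin 1.2% were called higher and 13.4% lower. Counts of at least 2-fold were less even still, with 993 genes higher and 121 lower. With the level of the hybridization controls as a covariate, 29 genes were called, 18 higher and 11 lower, and 1455 had an unadjusted p below 0.05. The covariate itself separates the groups without overlap. With the poly-A controls as a covariate 3748 genes were called, and with the Gapdh difference 4530.

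**Figure D1:**
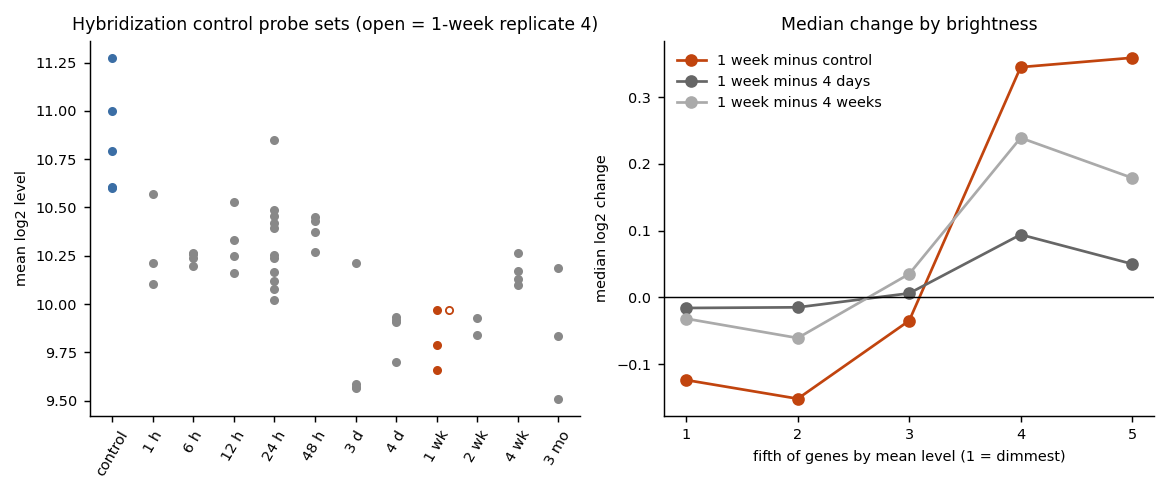
Left, mean log2 level of the hybridization control probe sets on each array, from the untreated controls through 1 hour to 3 months, with 1-week replicate 4 as an open circle; the 3 kept 1-week arrays lie at 9.66 to 9.97 and the controls at 10.60 to 11.27. Right, median log2 change in 5 bins of genes by mean level; for 1 week minus control it is -0.12 in the dimmest bin and 0.36 in the brightest.

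**Figure D2:**
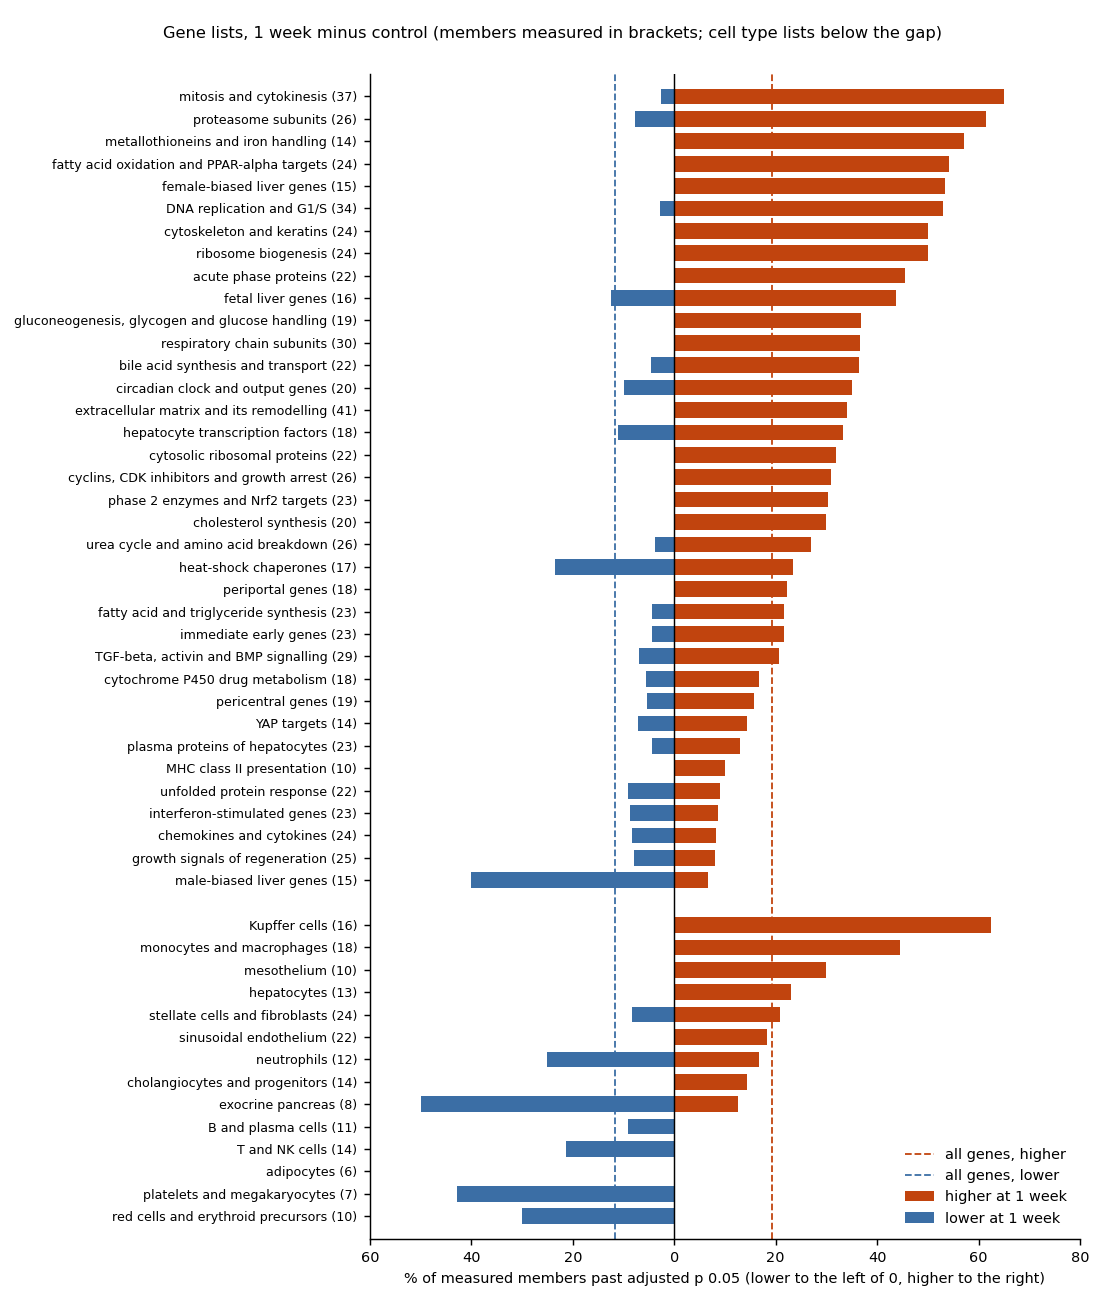
Share of each gene list called higher (right of 0) or lower (left of 0) at 1 week than in controls, in percent of its measured members, beside the share over all 18194 genes (19.3% higher, 11.6% lower). Mitosis and cytokinesis (64.9%), Kupffer cells (62.5%) and proteasome subunits (61.5%) had the largest shares called higher, and exocrine pancreas (50%), platelets (42.9%) and male-biased genes (40%) the largest called lower. After quantile normalization fewer proteasome subunits were called higher than lower, as was so for all genes (11.7% higher, 14.5% lower). Exocrine pancreas (8 measured genes) and platelets (7) had low mean levels, and in the dimmer bins of genes more were called lower than higher.

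Many genes of mitosis and of DNA replication were higher 1 week after resection. Of 37 measured genes of mitosis and cytokinesis, 24 rose, 1 fell and 12 did not pass the test, with a median change of 1.66 against 0.02 over all genes. Of 34 genes of DNA replication and the G1/S transition 18 rose and 1 fell, with a median of 1.06. Among 26 cyclins, CDK inhibitors and growth arrest genes 8 rose (30.8%) and none fell, with a median of 0.49, and the counts were the same with replicate 4 included. The mean log2 level of this list was 6.48 to 6.80 at 1 week. In the bin of genes with mean levels of 5.74 to 7.4, 36.6% were called higher, with a median change of 0.345, so its count does not exceed that share. In this bulk RNA, a change in the number of dividing cells and a change in RNA per cell cannot be told apart.

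Mki67, which encodes the Ki-67 protein of cycling cells, had log2 levels of 6.55, 7.06 and 6.62 in 1-week livers, against 3.42, 3.61, 3.37, 3.15 and 3.18 in control livers. Ccnb2, the mitotic cyclin B2 that activates Cdk1, had 6.42, 7.43 and 6.42 at 1 week and 3.48, 2.76, 3.00, 2.69 and 3.63 in controls. For both genes every 1-week array lay more than 2 log2 units above every control. All controls lay below 4.04, the median of the control means over probe sets. That level is used here as a floor, though it does not measure detection, so folds against these controls are given as lower bounds. Mki67 was at least 6.50-fold higher (change 3.40 ± 0.80 SE, adjusted p = 0.00121) and Ccnb2 at least 6.55-fold higher (3.65 ± 0.70 SE, adjusted p = 0.000121).

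Other mitotic genes moved alike. Cdc20, the activator of the anaphase-promoting complex, had 7.62, 8.05 and 6.99 at 1 week and 4.52, 3.67, 4.65, 4.24 and 4.66 in controls (9.23-fold, adjusted p = 0.00291). Birc5, a subunit of the chromosomal passenger complex, was at least 3.70-fold higher (adjusted p = 0.00113), and Cdk1, the mitotic kinase, was 6.91-fold higher (adjusted p = 0.00164). Top2a, the topoisomerase that untangles chromosomes, was at least 3.47-fold higher (adjusted p = 0.00273). The exception was Foxm1, a transcription factor that drives mitotic genes, which had 4.78, 4.75 and 4.35 at 1 week and 5.08 to 5.45 in controls. Its change was -0.66 ± 0.16 SE (adjusted p = 0.00184), and 2 of its 4 probe sets were called lower and the others not called.

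The replication genes that rose include the helicase and its loading machinery. Mcm6, a subunit of the replicative helicase, had 7.11, 8.17 and 8.23 at 1 week and 3.78, 4.24, 4.36, 4.83 and 4.42 in controls, an 11.4-fold difference (3.51 ± 0.76 SE, adjusted p = 0.000530). Mcm5 was 10.5-fold higher (adjusted p = 0.00108), and Cdt1, which loads the helicase, was 6.72-fold higher (adjusted p = 0.000220). Rrm2, the regulated subunit of ribonucleotide reductase, was 7.05-fold higher (adjusted p = 0.00465). In each of these 4 genes the groups did not overlap. Fen1, the flap endonuclease of lagging-strand synthesis, had a change of -1.25 ± 0.25 SE (adjusted p = 0.000261), but its 2 probe sets were called in opposite directions.

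Among the regulators, Ccnd1 differed most. Cyclin D1 carries growth factor signals into the cell cycle. Its log2 level was 10.46, 10.10 and 10.00 in 1-week livers and 6.17, 6.65, 6.79, 6.49 and 7.12 in control livers, 11.6-fold higher at 1 week (3.54 ± 0.40 SE, adjusted p = 3.62e-08). Cdkn2c, an inhibitor of the cyclin D kinases, was higher by 1.79 ± 0.41 SE (adjusted p = 0.000884), and Rbl1, a relative of the retinoblastoma protein, by at least 3.13-fold (adjusted p = 0.00212). Cdkn1a, the p53 target that halts cycling, had 6.19, 6.82 and 6.97 at 1 week and 4.54 to 5.66 in controls, which do not overlap, but did not pass the test (1.55 ± 0.62 SE, adjusted p = 0.0537).

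**Figure D3:**
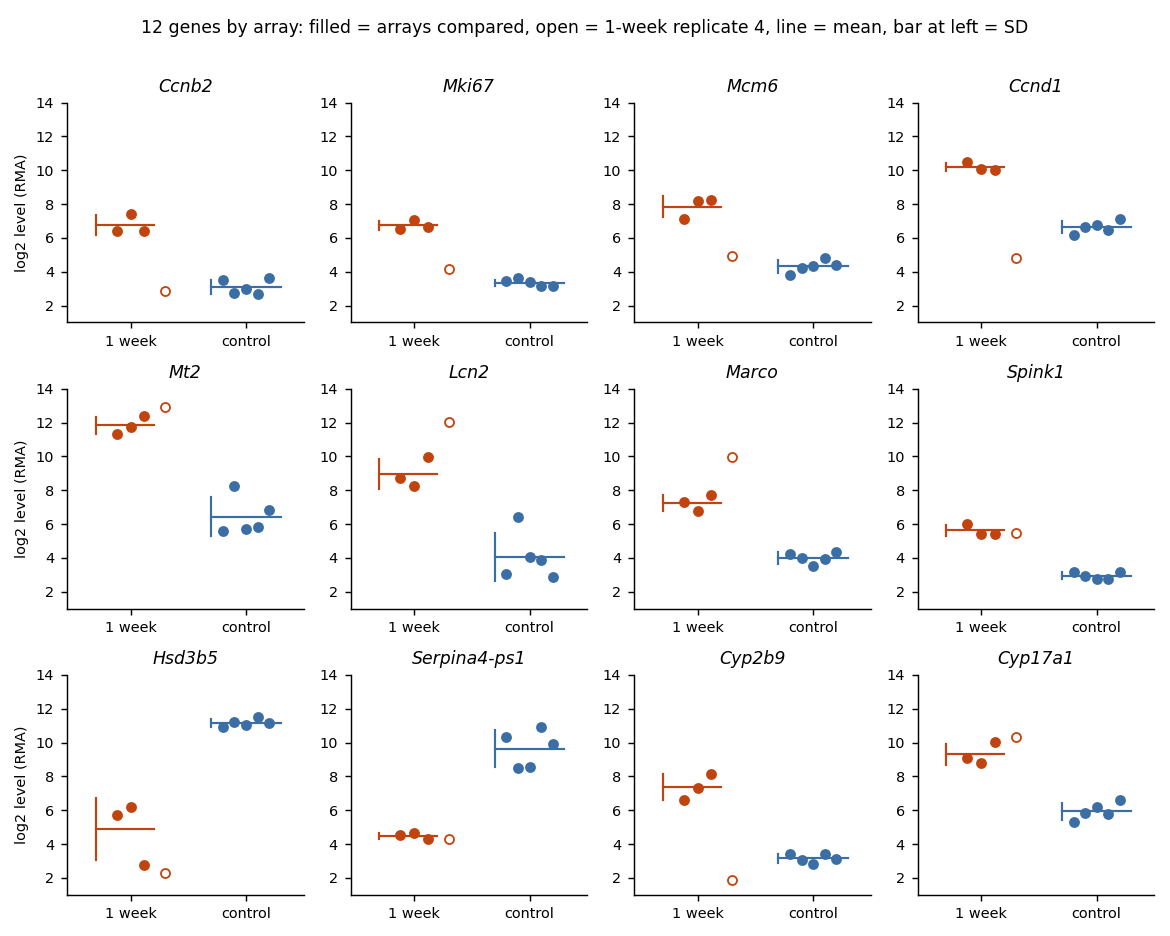
Log2 level of 12 genes on each array, 1-week arrays left of controls, with lines at the means and bars for the SD; the left-out 1-week replicate 4 is an open circle. Ccnb2, Mki67, Mcm6, Ccnd1, Mt2, Lcn2, Marco, Spink1, Cyp2b9 and Cyp17a1 are higher in the 3 kept 1-week arrays than in any control, and Hsd3b5 and Serpina4-ps1 are lower.

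With replicate 4 included, 36.7% of all genes were called, 21.8% higher and 14.9% lower. In that fit 19 mitosis genes rose and 2 fell (median 1.24), and 15 replication genes rose and 2 fell (median 0.86). With the hybridization controls as a covariate (0.159% of all genes called) no member of these 2 lists was called, and the medians were 0.35 for mitosis and 0.10 for replication, while Ccnd1 was still called (2.53 ± 0.55 SE, adjusted p = 0.0437).

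Mitotic genes share promoter elements, the CCAAT box bound by NF-Y and the cell cycle homology region bound by the DREAM complex. The 250 bases upstream of the start site are shown for 3 members that rose, from RefSeq on GRCm38.p6, 5′ to 3′ on the gene's strand, with every match to CCAAT, and every match to TTTGAA, on either strand in capitals.
Ccnb2, chr9:70421555-70421804, minus strand: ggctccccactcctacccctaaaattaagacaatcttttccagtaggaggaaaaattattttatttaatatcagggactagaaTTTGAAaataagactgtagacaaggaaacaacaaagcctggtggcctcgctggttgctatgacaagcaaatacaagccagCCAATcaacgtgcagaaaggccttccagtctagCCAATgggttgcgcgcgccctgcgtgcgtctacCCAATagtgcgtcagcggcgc
Cdc20, chr4:118437344-118437593, minus strand: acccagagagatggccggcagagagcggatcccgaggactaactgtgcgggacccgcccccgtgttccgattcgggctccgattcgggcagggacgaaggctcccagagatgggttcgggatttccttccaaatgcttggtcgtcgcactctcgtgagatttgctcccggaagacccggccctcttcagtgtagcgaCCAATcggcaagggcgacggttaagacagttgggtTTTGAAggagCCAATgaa
Cdk1, chr10:69352913-69353162, minus strand: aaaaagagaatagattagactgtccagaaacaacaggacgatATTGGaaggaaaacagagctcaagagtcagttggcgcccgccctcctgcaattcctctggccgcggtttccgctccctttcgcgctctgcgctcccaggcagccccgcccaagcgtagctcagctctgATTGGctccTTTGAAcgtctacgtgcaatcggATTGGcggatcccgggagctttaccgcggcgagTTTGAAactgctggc

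The windows hold 3, 2 and 3 CCAAT matches for Ccnb2, Cdc20 and Cdk1, and 1, 1 and 2 matches to TTTGAA. On either strand, CCAAT was found in 33.8% of 32851 promoters of the table and in 26 of the 32 promoters (81.2%) of the 30 measured mitosis genes that could be matched. It was present in 15 of 21 promoters of members that rose and in 11 of 11 of members that did not, while 2 or more matches were present in 13 of 21 promoters of members that rose, in 3 of 11 of the others and in 10.1% of all promoters. Neither split was tested. The cell cycle homology region, searched as TTTGAA and as TTCGAA on either strand, was found in 17.1% of all promoters, in 10 of 21 of the members that rose and in 3 of 11 of the others. These matches describe letters in the window and not binding.

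Metallothioneins, small proteins that bind zinc and copper, held the largest log2 increase of all called genes. Mt2 had log2 levels of 11.35, 11.75 and 12.39 in 1-week livers, against 5.56, 8.25, 5.73, 5.82 and 6.86 in control livers. Mt1 had 12.32, 12.83 and 13.17 at 1 week and 6.55, 10.28, 7.07, 6.88 and 8.46 in controls. Control replicate 2 was the highest control for both genes and still lay below every 1-week array. Mt2 was 41.9-fold higher (5.39 ± 0.53 SE, adjusted p = 4.36e-09) and Mt1 30.4-fold higher (4.93 ± 0.48 SE, adjusted p = 4.36e-09). Both passed with the hybridization controls as a covariate (5.14 ± 0.79 SE, adjusted p = 0.00139 for Mt2). Probes of Mt1 and Mt2, as those of the Mup, Cyp2b and Cyp4a families named below, may detect close relatives, so values of single members are uncertain.

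Metallothionein genes are switched on through metal response elements bound by the zinc sensor MTF1. The Mt2 promoter is shown with matches on either strand to the core TGCACNC, and to its form TGCGCNC, in capitals.
Mt2, chr8:94172368-94172617, plus strand: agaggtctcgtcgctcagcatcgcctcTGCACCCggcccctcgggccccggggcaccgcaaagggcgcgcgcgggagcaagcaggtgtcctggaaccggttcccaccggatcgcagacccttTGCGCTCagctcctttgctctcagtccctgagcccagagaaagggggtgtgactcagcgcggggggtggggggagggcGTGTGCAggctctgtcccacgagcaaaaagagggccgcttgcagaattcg

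It holds 3 matches, where 21.4% of all promoters hold any and 5.2% hold 2 or more. Of 14 measured genes of the metallothionein and iron handling list 8 rose and none fell, with a median change of 0.55, and the counts were the same with replicate 4 included. Slc30a1, the zinc exporter that MTF1 also controls, had 8.33, 8.09 and 8.54 at 1 week and 6.45, 7.50, 7.41, 6.86 and 7.60 in controls (1.16 ± 0.22 SE, adjusted p = 0.000133). Hamp, the iron hormone hepcidin, had 11.99, 11.93 and 11.09 at 1 week and 12.42 to 12.79 in controls and did not pass (-0.97 ± 0.58 SE, adjusted p = 0.204).

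Genes with a sex bias in mouse liver were grouped by the sex in which they are normally higher. Of 15 measured male-biased genes 6 fell and 1 rose, with a median change of -0.93. Of 15 female-biased genes 8 rose and none fell, with a median of 0.93. With replicate 4 included, 7 male-biased genes fell and none rose, and 6 female-biased genes rose and none fell. Replicate 3 lay furthest from controls, with list means of 8.12, 8.12 and 6.74 for male-biased and 5.39, 5.33 and 6.45 for female-biased genes in replicates 1 to 3. Controls had 8.97 to 9.44 and 4.18 to 4.46. Against 4 days 0 members of either list were called (0.055% of all genes), so the difference is not particular to 1 week.

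Hsd3b5, a male-specific steroid dehydrogenase of hepatocytes, had log2 levels of 5.73, 6.18 and 2.77 in 1-week livers, against 10.92, 11.22, 11.06, 11.50 and 11.13 in control livers. It was 77.4-fold lower at 1 week (-6.27 ± 1.35 SE, adjusted p = 0.000481). The third 1-week array was also the lowest for Slco1a1, an organic anion transporter, with 7.56, 8.99 and 5.28 at 1 week and 10.17 to 10.49 in controls (8.40-fold lower, adjusted p = 0.000964). The same array was lowest for Cyp4a12a, a fatty acid hydroxylase, with 8.82, 8.68 and 4.31 at 1 week and 10.17 to 10.80 in controls (9.43-fold lower, adjusted p = 0.0412). Elovl3, a fatty acid elongase, was 14.3-fold lower (adjusted p = 0.00459), although control replicate 5 stood at 9.02 where the other controls had 11.07 to 11.36. Mup3 and Mup10, major urinary proteins that carry pheromones, were 3.34-fold and 3.32-fold lower (adjusted p = 0.00134 and 0.0330). Ces2e, a carboxylesterase on the male-biased list, went the other way (1.04 ± 0.28 SE, adjusted p = 0.00493), but its change was -0.02 with replicate 4 included.

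Cyp2b9, a P450 enzyme that adult male livers normally keep off, had 6.59, 7.34 and 8.12 in 1-week livers, against 3.44, 3.04, 2.80, 3.41 and 3.12 in control livers. It was at least 9.86-fold higher (4.18 ± 1.16 SE, adjusted p = 0.00557), while the left-out replicate 4 had 1.90, and the call was lost with it (adjusted p = 0.0517). Cyp17a1, a steroid hydroxylase and lyase, had 9.09, 8.81 and 10.01 at 1 week and 5.29, 5.83, 6.17, 5.80 and 6.62 in controls (10.3-fold, adjusted p = 4.90e-05). Sult1e1, the oestrogen sulphotransferase, ranged widely at 1 week, with 5.45, 4.35 and 9.32, and from 2.80 to 3.82 in controls (at least 5.02-fold, adjusted p = 0.00580). Cyp4a14, which is on this list and on that of PPAR-alpha targets, had 11.55, 11.58 and 11.76 at 1 week and 6.18, 7.77, 8.20, 8.71 and 8.28 in controls (13.9-fold, adjusted p = 9.37e-06). Igf1, a growth hormone target with no sex list here, had 11.46 to 11.53 at 1 week and 11.25 to 11.61 in controls (0.06 ± 0.11 SE, adjusted p = 0.694).

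After Hsd3b5 the largest decrease was in Serpina4-ps1, annotated as a pseudogene of the serpin protease inhibitors. It had 4.52, 4.64 and 4.31 in 1-week livers and 10.35, 8.52, 8.54, 10.91 and 9.93 in control livers, 35.7-fold lower at 1 week (-5.16 ± 0.63 SE, adjusted p = 2.04e-07), and all 3 of its probe sets were called lower. Serpina12, which encodes the secreted serpin vaspin, had 6.31, 6.60 and 5.44 at 1 week and 9.12 to 9.76 in controls (10.0-fold lower, adjusted p = 1.84e-05). Col27a1, a fibrillar collagen chain, had 5.17, 5.23 and 5.41 at 1 week and 7.02 to 8.49 in controls (4.51-fold lower, adjusted p = 1.23e-08). Csad, which makes the taurine precursor hypotaurine, was 4.29-fold lower (adjusted p = 0.00103), and Dnase2a, the lysosomal nuclease, 6.17-fold lower (adjusted p = 4.99e-05).

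Of 22 acute phase proteins, which hepatocytes secrete during inflammation, 10 rose (45.5%) and none fell, with a median change of 0.51. Their mean log2 level was 10.50 to 11.02 at 1 week. In the brightest of the 5 bins of genes, 40.6% were called higher, with a median change of 0.36, so the count lies near that share. Lcn2, which withholds iron from bacteria by binding their siderophores, had 8.71, 8.27 and 9.97 in 1-week livers, against 3.06, 6.39, 4.05, 3.88 and 2.88 in control livers (30.5-fold, adjusted p = 0.000606). Saa1, serum amyloid A, had 10.82, 10.30 and 12.04 at 1 week and 7.14, 11.97, 8.10, 8.44 and 7.40 in controls, so that control replicate 2 lay within the 1-week range (5.45-fold, adjusted p = 0.0299). Orm2, an orosomucoid, had 9.44, 9.29 and 9.95 at 1 week and 5.27 to 8.04 in controls (10.7-fold, adjusted p = 0.00118). With replicate 4 included 15 of the 22 rose and none fell, and with the poly-A controls as a covariate, where 13.2% of all genes were called higher, 3 did.

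Markers of Kupffer cells, the resident macrophages of the liver, were higher at 1 week than in controls. Of 16 measured markers 10 rose and none fell, with a median change of 1.27, and their mean log2 level was 6.60 to 6.97 at 1 week and 4.99 to 5.69 in controls. The 1-hour arrays, at 6.09 to 6.90, also lay above every control, so the difference is not particular to 1 week. Its cause was not tested. Marco, a scavenger receptor, had 7.32, 6.75 and 7.70 in 1-week livers, against 4.22, 3.97, 3.51, 3.91 and 4.37 in control livers (at least 9.25-fold, adjusted p = 1.22e-05). Vsig4, a complement receptor, had 6.84, 7.51 and 6.75 at 1 week and 3.49, 4.70, 4.61, 4.88 and 4.44 in controls (6.12-fold, adjusted p = 0.000450). Cd5l, a secreted macrophage protein, was 4.70-fold higher (adjusted p = 0.000912), and C1qb, a subunit of complement C1q, 4.34-fold higher (adjusted p = 0.00153). Among the markers listed, Timd4, Marco, Cd163 and Spic averaged below the floor in controls, and Spic alone did at 1 week. With replicate 4 included 11 of the 16 markers rose and none fell.

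Of 18 markers of monocytes and macrophages more broadly, 8 rose and none fell, with a median of 0.90 (12 and 1 with replicate 4 included). Lgals3, galectin-3, had 5.40, 6.77 and 5.61 at 1 week and 3.47 to 4.23 in controls (at least 3.68-fold, adjusted p = 0.00204). Cd68, a lysosomal macrophage protein, did not pass (0.90 ± 0.43 SE, adjusted p = 0.106). Of 12 neutrophil markers 2 rose and 3 fell (3 and 2 with replicate 4 included). Prtn3, a protease of neutrophil granules, had 7.89, 6.78 and 9.41 at 1 week and 3.95 to 4.70 in controls (13.4-fold, adjusted p = 6.93e-05), whereas the granule genes Mpo, Ltf and Mmp8 averaged below the floor in both groups. Of 14 T and NK cell markers 3 fell (21.4%) and none rose (4 and none with replicate 4 included). Their mean log2 level lay below the floor, at 3.40 to 3.63 at 1 week and 3.57 to 3.78 in controls. In the bin of genes with mean levels of 3.17 to 4.32, 18.6% were called lower and 3.6% higher.

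Of 24 genes of fatty acid oxidation and PPAR-alpha targets 13 rose and none fell, with a median of 0.57. With replicate 4 included 7 rose and 1 fell (median 0.31). Ehhadh, the bifunctional enzyme of peroxisomal oxidation, had 11.94, 12.31 and 11.85 in 1-week livers, against 9.23, 10.32, 10.15, 10.32 and 10.30 in control livers (3.92-fold, adjusted p = 0.000167). Of 23 genes of fatty acid and triglyceride synthesis 5 rose (21.7%, against 19.3% of all genes) and 1 fell (4.3%, against 11.6%), with a median of 0.36. With replicate 4 included 3 of the synthesis genes rose and 3 fell (median -0.33). The difference between the oxidation and synthesis lists was not tested. Fasn, fatty acid synthase, had 10.22, 10.54 and 10.33 at 1 week and 8.93 to 10.75 in controls and did not pass (0.34 ± 0.46 SE, adjusted p = 0.605). Lpin1, a phosphatidate phosphatase and coregulator, was 3.75-fold higher (adjusted p = 0.00158), and Mlxipl, the glucose-responsive factor ChREBP, 2.10-fold lower (adjusted p = 0.0147). Scd2, a stearoyl-CoA desaturase that adult liver expresses little, had 7.57, 6.83 and 7.11 at 1 week and 3.82 to 4.02 in controls (at least 8.72-fold, adjusted p = 6.87e-06), though another of its 3 probe sets was called lower.

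Of 16 genes of fetal liver 7 rose and 2 fell, with a median change of 0.49, and with replicate 4 included 9 rose and 1 fell. Afp, alpha-fetoprotein, had 5.73, 5.44 and 5.53 in 1-week livers, against 3.07, 3.12, 2.83, 3.94 and 2.95 in control livers (at least 2.87-fold, adjusted p = 0.000594), on 1 of its 5 probe sets. Spink1, a trypsin inhibitor, had 6.02, 5.44 and 5.43 at 1 week and 2.74 to 3.16 in controls (at least 3.00-fold, adjusted p = 6.66e-07). Lpl, lipoprotein lipase, which adult hepatocytes hardly make, had 10.92, 10.48 and 10.56 at 1 week and 7.25 to 8.23 in controls (7.31-fold, adjusted p = 2.79e-05). Tff3, a trefoil peptide, was 6.16-fold higher (adjusted p = 0.000114), and Sox4, a transcription factor, fell by 0.72 on the log2 scale (adjusted p = 0.000222).

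Of 13 hepatocyte markers 3 rose (23.1%, against 19.3% of all genes) and none fell, and with replicate 4 included 4 rose and 2 fell. These are bright genes, with a mean log2 level of 13.03 to 13.12 at 1 week. In the brightest of the 5 bins of genes, 40.6% were called higher, with a median change of 0.36. Alb, serum albumin, averaged 14.09 ± 0.03 in 1-week livers and 13.97 ± 0.03 in control livers (SD, n = 3 and 5), near the top of the scale (0.12 ± 0.06 SE, adjusted p = 0.130). Hnf4a, the master transcription factor of hepatocytes, had 11.12 to 11.23 at 1 week and 10.96 to 11.25 in controls (0.04 ± 0.10 SE, adjusted p = 0.781). Of 23 plasma proteins 3 rose and 1 fell, and 3 rose and 4 fell with replicate 4 included. The median change of both lists was 0.07. Cyp7a1, which catalyses the controlling step from cholesterol to bile acids, spread from 9.31 to 11.44 at 1 week and from 9.44 to 10.55 in controls (0.41 ± 1.00 SE, adjusted p = 0.787). Of 22 genes of bile acid synthesis and transport 8 rose (36.4%) and 1 fell as deposited. Their mean log2 level was 10.05 to 10.20 at 1 week, and the share called higher was below the 40.6% of the brightest bin. After quantile normalization 3 rose and 3 fell (11.7% and 14.5% of all genes). With replicate 4 included 4 rose and 2 fell. Cyp39a1, a hydroxylase of oxysterols, rose most among them (7.29-fold, adjusted p = 9.57e-07).

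Of 41 genes of the extracellular matrix and its remodelling 14 rose (34.1%) and none fell, with a median of 0.32 (17 and none with replicate 4 included). Their mean log2 level was 5.84 to 6.48 at 1 week. In the bin of genes with mean levels of 5.74 to 7.4, 36.6% were called higher, with a median change of 0.345. The list as a whole thus stayed near genes of like level. Col4a1, a basement membrane collagen, had 7.39, 7.81 and 7.04 in 1-week livers, against 5.27, 5.60, 6.31, 5.73 and 5.70 in control livers (3.24-fold, adjusted p = 3.06e-05). Col1a1, the chain of scar collagen, had 4.77, 5.76 and 4.24 at 1 week and 4.01 to 5.53 in controls and did not pass (0.08 ± 0.33 SE, adjusted p = 0.879). Acta2, the marker of activated stellate cells, did not pass either (0.08 ± 0.45 SE, adjusted p = 0.905). Of 24 cytoskeleton and keratin genes 12 rose and none fell, with a median of 0.66 (14 and none with replicate 4 included). Stmn1, a microtubule destabilizer of dividing cells, had 9.0, 9.66 and 9.11 at 1 week and 6.26 to 6.51 in controls (7.28-fold, adjusted p = 0.00172).

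Of 20 genes of the circadian clock and its output 7 rose (35%) and 2 fell (10%), with a median of 0.79 (5 and 2 with replicate 4 included). Their mean log2 level was 6.96 to 7.05 at 1 week. In the bin of genes with mean levels of 5.74 to 7.4, 36.6% were called higher and 5.8% lower, with a median change of 0.345. The labels used here give no hour of collection, so time of day and operation cannot be told apart. Usp2, a clock-driven deubiquitinase, had 9.46, 8.80 and 9.10 in 1-week livers, against 6.33, 6.13, 6.33, 6.33 and 8.79 in control livers (5.05-fold, adjusted p = 0.000404). Arntl, the clock activator BMAL1, had 3.67, 4.18 and 3.81 at 1 week and 5.66, 6.13, 5.23, 5.75 and 3.56 in controls (at least 2.33-fold lower, adjusted p = 0.0267). For both genes control replicate 5 resembled the 1-week arrays and stood apart from the other controls.

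Differences from neighbouring times place these genes within the time course. Between 1 week and 4 days 10 genes were called (8 higher, 2 lower at 1 week). Those higher include Me1, the malic enzyme that supplies NADPH (1.58 ± 0.28 SE, adjusted p = 0.00577), Pklr, liver pyruvate kinase (1.44 ± 0.26 SE, adjusted p = 0.00919), and Abcg8, a partner of the sterol exporter Abcg5 (1.21 ± 0.20 SE, adjusted p = 0.00392). Pklr had 8.18, 8.42 and 8.76 at 1 week and 8.25 to 9.04 in controls, and its change against controls did not pass (-0.20 ± 0.25 SE, adjusted p = 0.580). Over all genes 0.055% were called in this comparison, and of the 37 mitosis genes 0 were, with a median change of -0.45.

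**Figure D4:**
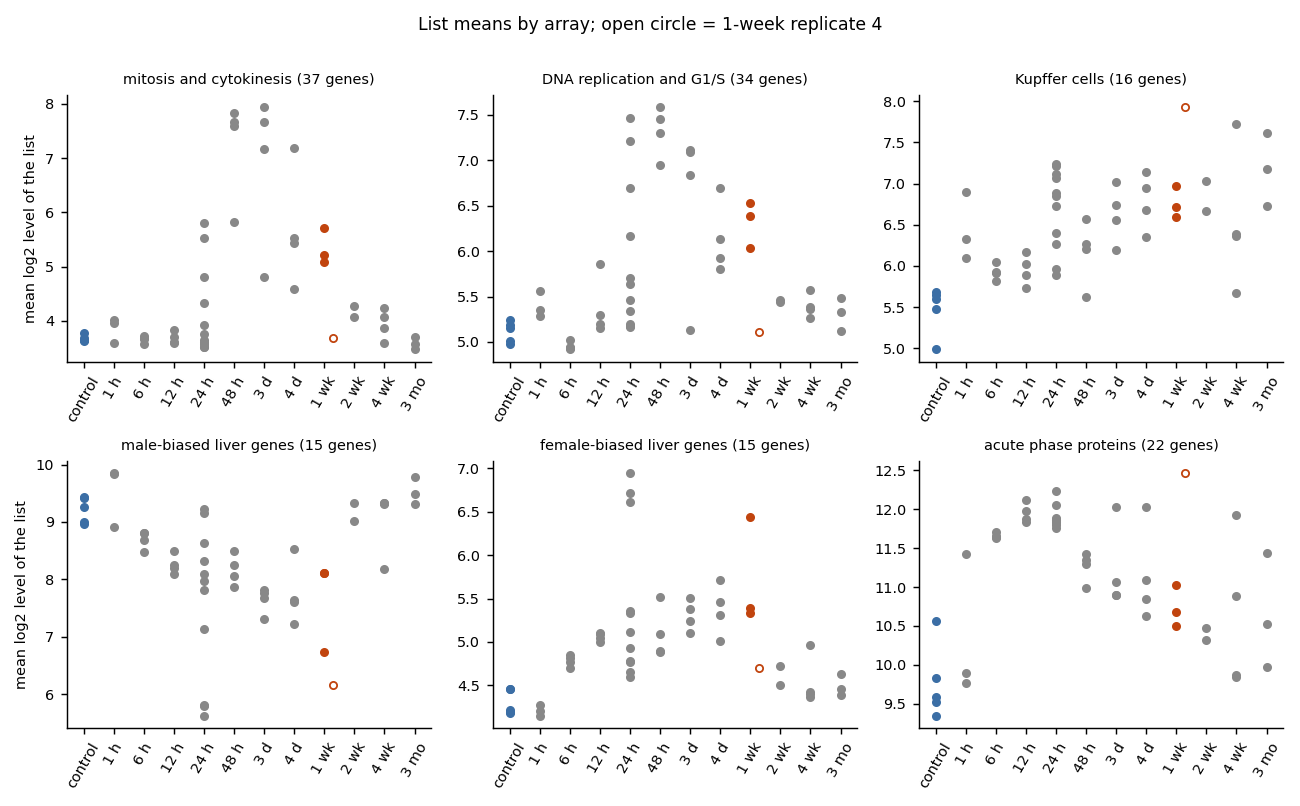
Mean log2 level of 6 gene lists, a point for each array, from the untreated controls through 1 hour to 3 months after partial hepatectomy; the open circle is 1-week replicate 4. The mitosis list stands at 5.08 to 5.71 in the 3 kept 1-week arrays and at 3.62 to 3.77 in controls, and the Kupffer cell list at 6.60 to 6.97 in those 1-week arrays and at 4.99 to 5.69 in controls.

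Ccnb2 averaged 3.11 ± 0.42 in controls, 8.41 ± 1.54 at 48 hours, and 8.72 ± 1.95 and 7.30 ± 1.69 at 3 and 4 days (SD over the arrays of each group). It was 6.76 ± 0.58 at 1 week, then 4.53 ± 0.09 and 3.67 ± 0.57 at 2 and 4 weeks, and 3.12 ± 0.62 at 3 months. The 1-week level exceeded that of 4 weeks by 3.09 (adjusted p = 0.0250) and that of 3 months by 3.63 (adjusted p = 0.0154) on the log2 scale. Spink1 averaged 5.63 ± 0.33 at 1 week, then 3.34 ± 0.36 and 3.28 ± 0.31 at 2 and 4 weeks and 3.18 ± 0.13 at 3 months, and each of these 3 differences passed (adjusted p = 0.0219, 0.000582 and 0.000567). Serpina4-ps1 averaged 4.49 ± 0.17 at 1 week, then 8.37 ± 0.79 and 8.17 ± 0.89 at 2 and 4 weeks and 9.88 ± 0.35 at 3 months, and each difference passed (adjusted p = 0.0331, 0.00297 and 2.67e-05). Mt2 averaged 11.83 ± 0.53 at 1 week, then 11.55 ± 0.03 and 11.35 ± 1.40 at 2 and 4 weeks and 10.53 ± 1.82 at 3 months, and none of these differences passed.

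Against 4 weeks 342 genes (1.88%) were called, 272 higher and 70 lower at 1 week. Among them, with their log2 changes, were Scd2 (3.03, adjusted p = 0.00183), Cyp2b9 (4.46, adjusted p = 0.0439), Lpl (2.04, adjusted p = 0.0322), Slco1a1 (-2.86, adjusted p = 0.0338) and Nqo1, a quinone reductase and Nrf2 target (1.72, adjusted p = 0.0105). The 4-week array replicate 1 stood apart from its group, with 3.46 for Hsd3b5 where the others had 10.62 to 10.98. Without it 197 genes were called, and without it and 4 doubted 24-hour arrays 588. Against 2 weeks, with 2 arrays, 22 genes (0.121%) were called, and against 3 months 119 (0.654%). For the Kupffer cell list the median change was -0.02 against 4 days, -0.29 against 2 weeks, 0.19 against 4 weeks and -0.46 against 3 months, and 0 of its 16 members were called in each of these comparisons.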

How the data were processed

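Total liver RNA of each sample was hybridized to a mouse expression array, per the labels' protocols. The authors deposited log2 values per probe set, made with RMA in oligo 1.52.0, per the submitters' processing notes; depth has no counterpart in arrays, and the number of arrays limits the precision. Of 45101 probe sets, 34958 name 1 gene in the platform annotation, 932 name several and 9211 are not listed there. For each of 18194 genes the brightest probe set on average was used, and 18033 genes matched RefSeq. limma 3.58.1 (R 4.3.3) fitted all groups over 51 arrays, without 1-week replicate 4, and adjusted p-values (Benjamini-Hochberg) over all genes. Single values were tested by exact permutation (scipy 1.17.1, Python 3.11.15). The fit was tested on simulated data. A group mean below 4.04, the median of the control means over probe sets, gives folds as lower bounds. Of 925 list memberships, 341 were called.

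Genes named in the text were drawn by a rule from several sets, and not every gene of these sets is named. The first set was a fixed index. The next held the 15 highest and 15 lowest called genes whose groups do not overlap and whose higher mean is at least 7. Also used were the 8 highest and lowest against 4 days and 4 weeks. Each list gave up to 4 called members, plus the most changed one in the less common direction. Members named as lying below the floor, and the control probe sets, fall outside this rule and were chosen after their values were seen. Members and lists were chosen with earlier results of these data known. Same-numbered replicates of the 1-week and control groups had deviations correlated at 0.09, -0.11 and -0.01, and replicates of unlike number at -0.14 to 0.18. No pairing by number was seen, though these values cannot exclude one. Alternatives covered replicate 4, a replicate block, the groups fitted alone, probe set choice, dim genes, scaling, technical covariates, the prior, array weights, single arrays and thresholds. The comparisons with 2 weeks and 3 months were added after seeing the data.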

Additional observations from a re-analysis of the deposited data

Results flagged for a closer look

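Among 98 genes and list means given in the text, 7 had a control array set apart from the other 4 by more than Dixon's critical value for 5 values, which chance gives in about 1 of 20 groups. These were Afp in control replicate 4 (3.94, next 3.12), Egr1 in control replicate 5 (8.77, next 10.59), Ehhadh in control replicate 1 (9.23, next 10.15), Elovl3 in control replicate 5 (9.02, next 11.07), Me1 in control replicate 1 (8.73, next 9.68), Saa1 in control replicate 2 (11.97, next 8.44) and Usp2 in control replicate 5 (8.79, next 6.33).

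The difference from the controls at 1 week differed from that at 4 days for 10 genes and from that at 4 weeks for 342 genes, by limma's test of the difference itself. The left-out 1-week replicate 4 had a mean log2 level of 12.46 over the acute phase proteins, above every control.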

How the results depend on the processing

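Against controls, 5618 genes were called. The count was 3597 to 5554 with each array left out in turn (3597 without 1-week replicate 3), 29 with the hybridization controls as a covariate, 10052 of 34957 probe sets when every probe set was tested on its own, 3211 at an adjusted p below 0.01 and 1114 at 2-fold or more, and stayed within 1.5 times under the other settings. List members called numbered 341, and 6 with that covariate, 199 at an adjusted p below 0.01 and 174 at 2-fold or more, with 229 to 330 when single arrays were left out.

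The comparisons with later and earlier times were less stable. Against 4 days, 10 genes became 4 with 1-week replicate 4, 0 with the 2 groups alone, 22 over every probe set, 20 with the Gapdh covariate, 477 with array weights, 46 without doubted arrays, 4 at an adjusted p below 0.01, 5 at 2-fold or more, and 1 to 11 with single arrays left out (1 without 1-week replicate 2, 4 without 4-day replicate 2, 5 without 1-week replicate 1 and 6 without 4-day replicate 4). Against 4 weeks, 342 became 573 with replicate 4, 602 with the 2 groups alone, 619 over every probe set, 574 without dim genes, 204 after median centring, 123 after quantile normalization, 13 with the hybridization covariate, 3576 with array weights, 588 without doubted arrays, 18 at an adjusted p below 0.01, 114 at 2-fold or more, and 22 to 345 with single arrays left out (22, 38 and 62 without 1-week replicates 2, 1 and 3, 86 and 197 without 4-week replicates 4 and 1). Against 2 weeks, 22 became 108 with replicate 4, 1278 with the 2 groups alone, 10 after median centring, 13 after quantile normalization, 42 with the hybridization covariate and 0 to 9 with single arrays left out. Against 3 months, 119 became 241 with the 2 groups alone and 25 to 103 with single arrays left out. The causes were not tested.

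With a replicate block, which the labels do not call for, 5002 genes were called against controls (5492 on the same 6 arrays with no block), 1 against 4 days (0 with no block), 0 against 4 weeks (64 with no block), 665 against 2 weeks and 182 against 3 months. Of 203 called named genes, 188 kept their call under the block, 9 with the hybridization covariate, 159 after quantile normalization and 172 with replicate 4.

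Changes that reversed sign were Ces2e (-0.02) and Elovl6 (-0.17) with replicate 4, Derl1 (0.46) and Fen1 (0.17) as the mean of their probe sets, and Il2rb (0.00), Malat1 (0.13), Me1 (-0.10), Ngp (0.02) and Rpl8 (-0.02) with the hybridization covariate. Background was not measured. The floor of 4.04 is the median of the control means over probe sets, and its use limits the folds of genes that were dim in a group.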

Other observations

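Of 26 proteasome subunits 16 rose (61.5%) and 2 fell, with a median change of 0.36, and with replicate 4 included 17 rose and 2 fell. Their mean log2 level was 9.89 to 9.94 at 1 week, in the range of the brightest bin, whose median change was also 0.36. After quantile normalization 3 rose and 4 fell, near the shares of all genes in that fit (11.7% higher and 14.5% lower). Of 24 genes of ribosome biogenesis 12 rose and none fell, against 2 that rose and 3 that fell after quantile normalization and 17 that rose with replicate 4 included. Of 30 respiratory chain subunits 11 rose (36.7%) and none fell, with a median of 0.23 (7 and 1 with replicate 4 included). Their mean log2 level was 11.20 to 11.28 at 1 week. In the brightest of the 5 bins of genes, 40.6% were called higher, with a median change of 0.36. Sdhd, a membrane anchor of succinate dehydrogenase, had 10.36, 10.49 and 10.46 in 1-week livers and 7.22, 9.67, 8.90, 9.49 and 9.09 in control livers (2.95-fold, adjusted p = 2.62e-05).

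Of 17 heat-shock chaperones 4 rose and 4 fell, and 7 rose and 3 fell with replicate 4 included. Hspd1 and Hspa9 of the mitochondria were 1.90-fold and 1.85-fold higher (adjusted p = 0.00138 and 3.44e-05), while the cytosolic Hspb1 was 2.66-fold lower (adjusted p = 0.00231) and Hspa1b 2.38-fold lower (adjusted p = 0.0383). Nqo1, a quinone reductase under Nrf2, had 6.36, 6.75 and 7.24 at 1 week and 4.57 to 5.26 in controls (3.98-fold, adjusted p = 2.11e-05). Of 23 genes of phase 2 metabolism and Nrf2 targets 7 rose (30.4%) and none fell (7 and 2 with replicate 4 included). Their mean log2 level was 9.46 to 9.72 at 1 week, and in the brightest bin of genes 40.6% were called higher.

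Of 29 genes of TGF-beta, activin and BMP signalling 6 rose (20.7%, against 19.3% of all genes) and 2 fell (6.9%, against 11.6%). The median change was 0.09, so the list as a whole stayed near the background. With replicate 4 included 9 rose and none fell. Tgfbr2, the type II TGF-beta receptor, was 2.86-fold higher (adjusted p = 0.000403), although its probe sets disagreed, and Smad2, a mediator of the same pathway, was 2.82-fold higher (adjusted p = 1.02e-05). Bmper, a secreted BMP modulator, had 4.92, 5.43 and 6.66 at 1 week and 2.68 to 3.21 in controls (at least 3.09-fold, adjusted p = 0.00189), and 10.96 in the left-out replicate 4. Met, the receptor of hepatocyte growth factor, had 8.94, 8.89 and 9.15 at 1 week and 7.86 to 8.38 in controls (1.80-fold, adjusted p = 1.82e-05), and Vegfa was 1.69-fold lower (adjusted p = 0.00349).

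Among 19 pericentral genes 3 rose (15.8%, against 19.3% of all genes) and 1 fell (5.3%, against 11.6%). With replicate 4 included 1 rose and 3 fell. Lgr5, a receptor marking hepatocytes at the central vein, was 2.56-fold lower (adjusted p = 0.0135), with 4.37 to 4.53 at 1 week and 5.29 to 6.04 in controls. The pericentral enzymes Cyp2e1 (-0.19 ± 0.18 SE, adjusted p = 0.438) and Glul (-0.37 ± 0.36 SE, adjusted p = 0.448) did not pass. Egr1, an immediate early transcription factor, had 7.76, 10.50 and 7.78 at 1 week and 10.63, 10.81, 10.59, 10.69 and 8.77 in controls (3.07-fold lower, adjusted p = 0.0396).

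Slc16a5, a monocarboxylate transporter, had 7.01, 7.28 and 8.05 at 1 week and 3.43, 3.97, 3.59, 3.67 and 4.82 in controls, at least 10.6-fold higher (adjusted p = 8.49e-09), and 7.23 in replicate 4. It stayed called with the hybridization controls as a covariate (2.49 ± 0.50 SE, adjusted p = 0.0437), as did Serpina12, Serpina4-ps1, Marco, Col27a1, Cela1, Mt1, Mt2 and Ccnd1 among the named genes.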
